A study of Mus musculus with 3 samples.

Results

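The large subunit of the cytoplasmic ribosome joins amino acids into protein, and its proteins are encoded by the Rpl genes and by Rplp0, Rplp1 and Rplp2. Their transcripts were followed in the cortex of adult mice with a Gtf2i allele whose name records the loss of exon 2. The set was chosen with earlier results of these data known. Genes were taken by name, as those whose RefSeq symbol starts with Rpl and a digit, with the Rplp genes and without pseudogene symbols. This took 56 symbols, of which 51 had at least 1 probe on the arrays, 77 probes in all among 41174 gene probes. A probe was tested when its spots were called reliable, meaning foreground over 2 times background, on at least 2 arrays. That left 50 genes with 75 probes, among 27530 tested probes that named 12721 genes. Rpl37rt, Rpl32l, Rpl6l, Rpl10l and Rpl32p had no probe, and the probe of Rpl3l, a paralogue of Rpl3 known from muscle, was reliable on 0 arrays, as was a dim probe of Rpl39l.

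RNA from Gtf2i(+/Δex2) cortex and RNA from WT (+/+) cortex shared each of 3 arrays in 2 colours. All animals were 16 weeks old and shared a strain mix of 98.4% C57BL/6J with 1.6% 129Sv/CD1. Each RNA was a pool from 3 to 5 mice, and no label tells whether the arrays drew on different pools or on the same ones. The p-values therefore cover array-to-array spread, part or all of which may be technical. Mutant RNA carried Cy3 on replicates 1 and 3 and Cy5 on replicate 2. Each value is a log2 ratio, mutant over wild type. That direction is likely rather than stated. It rests on the order of genotypes in the titles and on the deposited description of the fold as test over control. Control spots (Pro25G) had a median log2 ratio of 4.51, -4.54 and 4.58 on replicates 1, 2 and 3. Their ratio turned over with the dyes, so the columns follow the RNA and not the dye. That alone does not give the direction.

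Each protein of the large subunit is added to ribosomal RNA in the nucleolus, the nucleus or, for the last few, the cytoplasm. A small particle of Rpl5, Rpl11 and 5S ribosomal RNA is built apart, and when free it binds the p53 regulator Mdm2. The stalk of Rplp0, Rplp1, Rplp2 and Rpl12 recruits the factors that drive elongation, and several other proteins line the tunnel through which the new peptide leaves. Transcripts of these genes are among the most abundant in most cells, neurons included. They start with a run of pyrimidines, the 5′ TOP sequence, through which the mTOR pathway sets their translation. Gtf2i encodes TFII-I, a transcription factor whose gene lies in the interval deleted in Williams-Beuren syndrome.

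The promoters below are those of the 5 genes with the largest falls among genes in the promoter table, of the only gene called higher, and of 2 uncalled genes with a mean ratio near 0, so that they can be set side by side. Of the stretches shown, those of Rpl6, Rpl37 and Rpl11 hold the marked letters, and Rpl34, which has 2 starts in the table, is shown at the first. Each line runs from 70 bases before the annotated start through its first 20 bases, on the gene's strand, as RefSeq gives it on GRCm38.p6. Capitals mark CCGGAA, letters contained in the sites of the ETS family of transcription factors, or its reverse complement TTCCGG. The search window was 250 bases before to 50 bases after the start, both strands.
Rpl10 (lower in mutant cortex; chrX:74270746-74270835, plus strand): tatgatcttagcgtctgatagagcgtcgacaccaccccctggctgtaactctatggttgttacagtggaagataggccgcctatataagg
Rpl6 (lower; chr5:121204431-121204520, plus strand): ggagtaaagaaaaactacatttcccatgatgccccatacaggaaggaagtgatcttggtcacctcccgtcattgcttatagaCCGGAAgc
Rpl34 (lower; chr3:130730379-130730468, minus strand): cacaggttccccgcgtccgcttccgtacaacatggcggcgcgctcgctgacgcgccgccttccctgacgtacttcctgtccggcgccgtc
Rpl37 (lower; chr15:5116543-5116632, plus strand): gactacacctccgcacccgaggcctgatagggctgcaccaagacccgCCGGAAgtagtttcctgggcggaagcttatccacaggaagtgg
Rpl23 (lower; chr11:97782420-97782509, minus strand): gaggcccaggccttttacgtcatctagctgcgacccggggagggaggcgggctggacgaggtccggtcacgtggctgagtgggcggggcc
Rpl11 (higher; chr4:136053374-136053463, minus strand): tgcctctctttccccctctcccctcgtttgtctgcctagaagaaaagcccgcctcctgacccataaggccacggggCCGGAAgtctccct
Rpl12 (not called; chr2:32961642-32961731, plus strand): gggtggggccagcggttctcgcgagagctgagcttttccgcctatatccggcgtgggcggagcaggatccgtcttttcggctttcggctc
Rpl28 (not called; chr7:4792895-4792984, plus strand): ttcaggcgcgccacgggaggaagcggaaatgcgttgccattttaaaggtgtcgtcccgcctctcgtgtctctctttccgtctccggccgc

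Of the 50 tested genes, 38 had a promoter in the RefSeq table. CCGGAA or its reverse complement lay in 19 of them (50%), against 15.2% of the 27025 genes with a promoter. It was present in 8 of the 15 genes called lower (the call is defined below) and in 11 of the 23 others. CTTTCC, a pyrimidine run, or its reverse complement GGAAAG lay in 22 of 38 promoters (57.9%), against 26.3% of all genes. It was counted anywhere in the window on both strands, so it does not measure the TOP sequence. That match was found in 10 of 15 genes called lower and in 12 of 23 others. GCCATCTT or AAGATGGC, letters of the YY1 site, lay in 3 of 38 (7.89%, all genes 2.88%), 1 of 15 called lower and 2 of 23 others. CACGTG, the E-box, lay in 5 (13.2%, all genes 7.24%), 3 of 15 called lower and 2 of 23 others. TATAAA or TTTATA lay in 4 (10.5%, all genes 14.2%), 0 of 15 called lower and 4 of 23 others. None of these splits was tested. The background of 27025 genes is wider than the 12721 tested genes, so it also holds genes not measured here. A match is a run of letters, not a shown binding site, and a window without it says only that these letters are not there.

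The arrays were alike in scale, with median gene spot intensities of 204.6 to 205.0, and 64.4% to 69.7% of gene spots were reliable. Gtf2i itself was lower in mutant cortex on every array, with log2 ratios of -0.46, -0.44 and -0.52 at its dimmer probe, 72.0% of wild type (limma adjusted p = 0.0026), and -0.34, -0.34 and -0.26 at its brighter probe, 80.4% of wild type (limma adjusted p = 0.00505). No source used here places these probes inside or outside exon 2, so they do not check the deletion. All 7 markers of cortical excitatory neurons fixed for the tissue check passed the reliability filter, as did 5 of 6 astrocyte markers and all 6 oligodendrocyte markers.

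More large subunit transcripts fell than rose in the mutant cortex. Each gene was counted by its brightest tested probe and called when the Benjamini-Hochberg adjusted p of limma, over all tested probes, was under 0.05. By that rule 20 of 50 genes fell (40%), 1 rose (2%) and 29 were not called. Were the deposited ratio the other way round, 40% would have risen and 2% fallen. Leaving out replicate 1 gave 8 lower and 0 higher, leaving out replicate 2 gave 21 lower and 9 higher, and leaving out replicate 3 gave 19 lower and 2 higher. Across all tested genes 20% fell and 16% rose, and in the brightest 25% of tested genes, where 44 of the 50 lie, 25.4% fell and 25.7% rose. The median log2 ratio of the 50 genes was -0.086, against -0.007 for all tested genes and 0.010 for the brightest 25%. On replicates 1, 2 and 3 the genes' medians were -0.108, -0.146 and -0.145, with 34, 39 and 31 of 50 below 0. The ratio was below 0 on all 3 arrays for 26 genes and above 0 on all 3 for 4. Of all 12721 tested genes, 4504 (35.4%) were below 0 on all 3 arrays and 3967 above 0 on all 3. On replicates 1, 2 and 3, 6826, 6504 and 6623 of them were below 0. Means of the 29 uncalled genes ran from -0.20 for Rpl9 (-0.24, 0.03 and -0.38 on replicates 1, 2 and 3) to 0.36 for Rpl14. Counted by probe, 33 of 75 fell (44%) and 3 rose (4%), where 18.9% of all tested probes fell and 15% rose. Tissue RNA holds many cell types, and fewer cells of a type cannot be told apart from less RNA per cell.

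**Figure D1:**
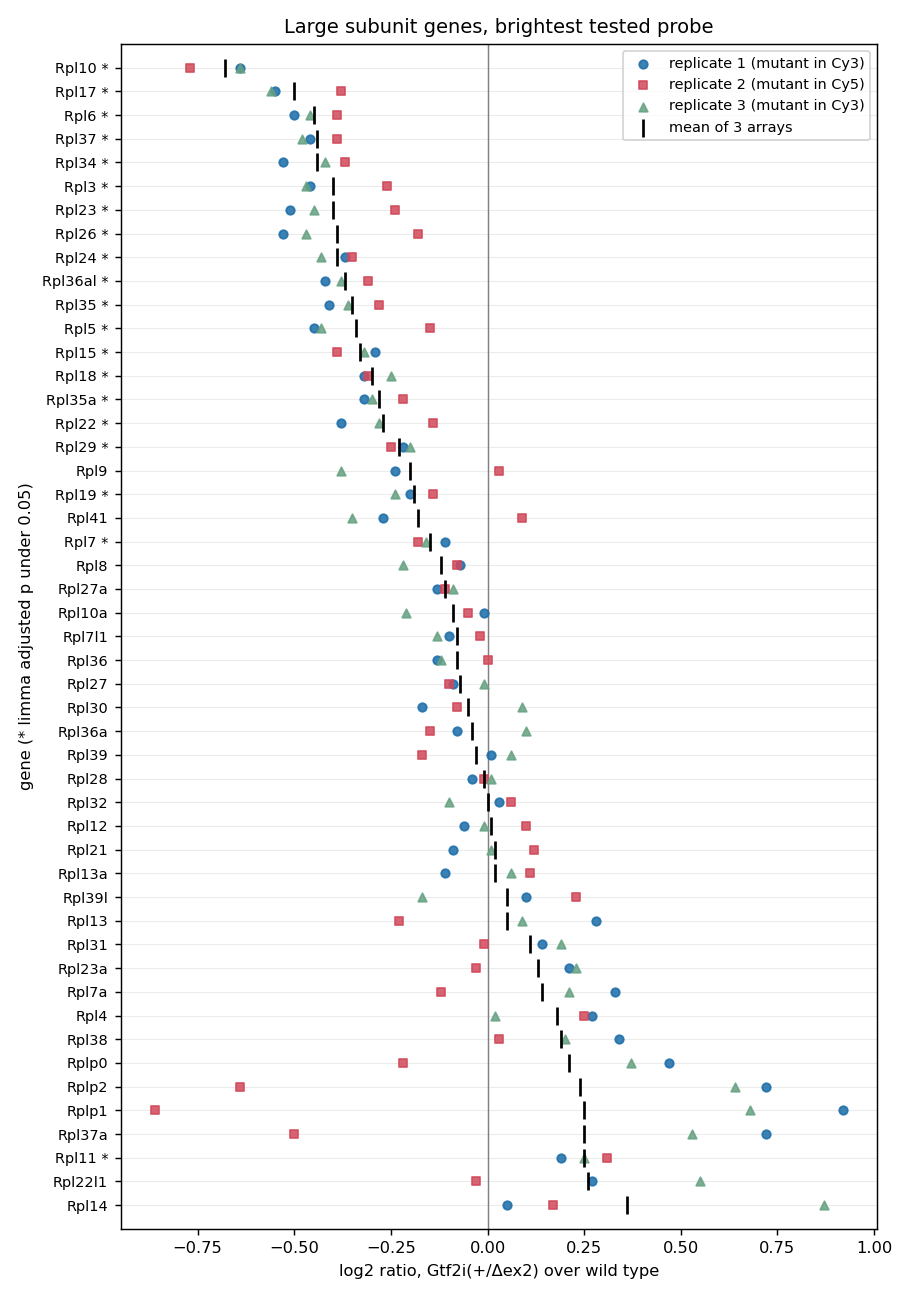
Log2 ratio of Gtf2i(+/Δex2) over wild type (horizontal axis) for the large subunit genes reported here, each at its brightest tested probe, in order of the mean (bar); circles, squares and triangles are replicates 1, 2 and 3, and an asterisk marks limma adjusted p under 0.05. The genes called lower lie in the upper part with all 3 arrays below 0, while Rplp0, Rplp1, Rplp2 and Rpl37a at the lower end have replicate 2 on the opposite side of 0 from replicates 1 and 3.

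Rpl10 had the largest fall. It encodes a protein near the catalytic centre that joins the subunit late, in the cytoplasm. Its signal was 3171, 3636 and 3780 in mutant cortex on replicates 1, 2 and 3, against 4936, 6179 and 5900 in wild-type cortex, in intensity units. The mutant values all lay below the wild-type values, at 62.3% of wild type on average. The log2 ratio was -0.68 ± 0.07 (SD, n = 3 arrays; limma adjusted p = 0.00209), and the array values were -0.64, -0.77 and -0.64. It stayed called in each of 16 alternative analyses, with log2 ratios of -0.70 to -0.64.

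Rpl17, a protein that lines the exit tunnel, gave 11654, 14920 and 13297 in mutant cortex and 17097, 19467 and 19567 in wild-type cortex. The groups did not overlap, and the log2 ratio was -0.50 ± 0.10 (SD, n = 3, limma adjusted p = 0.00347). A second, dimmer Rpl17 probe read -0.51 ± 0.12, so both probes fell by the same amount. Rpl6, a protein of the subunit's outer surface, gave 7830, 9732 and 8936 in mutant cortex and 11054, 12733 and 12300 in wild-type cortex. Its log2 ratio was -0.45 ± 0.06 (SD, n = 3, limma adjusted p = 0.00307), with -0.47 ± 0.12 at its other probe.

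Rpl34 carried the lowest single probe of the set. Its brighter probe gave 7263, 8933 and 8537 in mutant cortex, against 10515, 11577 and 11417 in wild-type cortex, a log2 ratio of -0.44 ± 0.08 (SD, n = 3, limma adjusted p = 0.00363). The dimmer probe gave 2076, 2097 and 2768 in mutant cortex, against 3698, 3441 and 4169 in wild-type cortex, a log2 ratio of -0.71 ± 0.12 (SD, n = 3, limma adjusted p = 0.00253). Both probes fell, but by different amounts. Rpl37 read 2793, 3145 and 2893 in mutant cortex and 3830, 4126 and 4032 in wild-type cortex, a log2 ratio of -0.44 ± 0.05 (SD, n = 3, limma adjusted p = 0.00298). Its other probe lay near the dim end of the array, at 127 to 132.4 in mutant and 131.9 to 135.9 in wild-type cortex, and was not called (-0.05 ± 0.01).

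Rpl7 shows how far a gene's size of change depended on the probe. Its brightest probe gave 10702, 11702 and 10673 in mutant cortex, against 11526, 13270 and 11957 in wild-type cortex, a log2 ratio of only -0.15 ± 0.04 (SD, n = 3, limma adjusted p = 0.0342). This call was lost in 7 of 16 alternative analyses, among them leaving out any single replicate (limma adjusted p = 0.0693 to 0.164). The other probes read -0.52 ± 0.05 (4492, 4927 and 4976 in mutant cortex, 6624, 6826 and 7153 in wild-type cortex) and -0.54 ± 0.04 (844.2, 865.5 and 922.1 in mutant cortex, 1238, 1290 and 1303 in wild-type cortex). All 3 probes fell (limma adjusted p = 0.00248 and 0.00225 for the other two).

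Rpl23 was the only large subunit gene whose probes were called in opposite directions. It encodes a protein at the face that meets the small subunit. Its brighter probe gave 9310, 12806 and 10765 in mutant cortex and 13221, 15125 and 14691 in wild-type cortex (log2 ratio -0.40 ± 0.14, SD, n = 3, limma adjusted p = 0.00822). Its dimmer probe gave 1470, 1502 and 1436 in mutant cortex and 1247, 1440 and 1209 in wild-type cortex (0.18 ± 0.11, SD, n = 3, limma adjusted p = 0.046). The direction for Rpl23 therefore rests on which probe is read.

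Another 13 genes called lower had log2 ratios from -0.40 for Rpl3, whose product reaches towards the catalytic centre, to -0.19 for Rpl19, a protein at the tunnel exit. Among them, Rpl3 read -0.40 ± 0.12, Rpl24 -0.39 ± 0.04, Rpl26 -0.39 ± 0.19, Rpl36al -0.37 ± 0.05, Rpl35 -0.35 ± 0.07, Rpl5 -0.34 ± 0.17 and Rpl15 -0.33 ± 0.05 (SD, n = 3 arrays). Rpl18 read -0.30 ± 0.04, Rpl35a -0.28 ± 0.05, Rpl22 -0.27 ± 0.12 and Rpl29 -0.23 ± 0.02. Their limma adjusted p ran from 0.00348 for Rpl24 to 0.0199 for Rpl22. These were small changes, with mutant signals at 76.0% (Rpl3) to 87.4% (Rpl19) of wild type. Without replicate 1, 12 of the 20 genes called lower lost their call, among them Rpl3, Rpl5, Rpl7, Rpl18, Rpl19, Rpl22, Rpl23, Rpl26, Rpl29, Rpl35 and Rpl35a, with limma adjusted p from 0.0514 for Rpl35 to 0.164 for Rpl7. The 8 that kept it were Rpl6, Rpl10, Rpl15, Rpl17, Rpl24, Rpl34, Rpl36al and Rpl37, and the count of all tested genes called lower was 711 under that setting, against 2549 with 3 arrays. With the mean of a gene's probes in place of its brightest, Rpl19 (-0.07, limma adjusted p = 0.154), Rpl22 (-0.07, 0.251) and Rpl23 (-0.11, 0.0628) were also no longer called.

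By role, the genes did not move as a block. The particle of Rpl5 and Rpl11 split. Rpl5 fell, with 8203, 10635 and 8144 in mutant cortex, against 11202, 11813 and 10965 in wild-type cortex, and log2 ratios of -0.45, -0.15 and -0.43 (limma adjusted p = 0.0174). Rpl11 rose, with 38451, 42870 and 35682 in mutant cortex, against 33691, 34506 and 29994 in wild-type cortex, and log2 ratios of 0.19, 0.31 and 0.25 (0.25 ± 0.06, SD, n = 3, limma adjusted p = 0.0103). Each mutant value of Rpl11 was above every wild-type value. The only tested Rpl11 probe was among the brightest, with a mean log2 signal of 15.12. Above a signal of 15, 14.9% of all tested probes rose and 5.26% fell. Without replicate 1 both calls were lost, at limma adjusted p = 0.105 for Rpl5 and 0.0629 for Rpl11.

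Of the proteins that join late in the cytoplasm, Rpl10 and Rpl24 fell. Rpl24, which forms a bridge to the small subunit, gave 3118, 3520 and 3193 in mutant cortex and 4039, 4484 and 4313 in wild-type cortex, and its second probe read -0.34 ± 0.06 (SD, n = 3). Rplp0, the third of this group, was not called at its brightest probe and is given with the stalk. Around the exit tunnel 5 of 10 genes fell (Rpl17, Rpl19, Rpl22, Rpl26 and Rpl35) and 0 rose at the adjusted threshold by limma. Of all tested genes 20% fell and 16% rose at that threshold. At an unadjusted limma p under 0.05 the number of tunnel genes passing in either direction was 7. That cut was passed by 6152 of all 12721 tested genes and by 1993 of the 3181 in the brightest 25%. Rpl26, which also binds p53 mRNA, gave 10394, 13197 and 11482 in mutant cortex and 14993, 14915 and 15858 in wild-type cortex, without overlap. The uncalled tunnel genes were Rpl4 (0.27, 0.25 and 0.02 on replicates 1, 2 and 3), Rpl23a (0.21, -0.03 and 0.23), Rpl31 (0.14, -0.01 and 0.19), Rpl38 (0.34, 0.03 and 0.20) and Rpl39 (0.01, -0.17 and 0.06). Rpl4 passed without replicate 3 (0.26, limma adjusted p = 0.00521), and Rpl38 (0.27, limma adjusted p = 0.0367) and Rpl23a (0.22, limma adjusted p = 0.0327) passed without replicate 2, when both remaining arrays carried mutant RNA in Cy3. Those probes of Rpl38 and Rpl23a are among the brightest, whose ratios are set against the dye below, and a dimmer Rpl23a probe fell (-0.21).

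Of 4 tested paralogues outside the usual set 1 was called lower and 0 higher, where 20% of all tested genes fell and 16% rose. Rpl36al, a copy of Rpl36a with its own gene, gave 990.4, 1190 and 1224 in mutant cortex and 1321, 1479 and 1590 in wild-type cortex, a log2 ratio of -0.37 ± 0.05 (SD, n = 3, limma adjusted p = 0.00393). Rpl36a was not called at its 2 brighter probes (-0.04 ± 0.13 and -0.03 ± 0.19) and fell at its dimmest probe (-0.26 ± 0.11, limma adjusted p = 0.0188). Rpl22l1, the paralogue of Rpl22, read 0.27, -0.03 and 0.55 on the 3 arrays and was not called with all of them (limma adjusted p = 0.12), but it passed without replicate 2 (0.41, limma adjusted p = 0.0366). Rpl7l1 read -0.08 ± 0.06 and Rpl39l 0.05 ± 0.20 (SD, n = 3), both uncalled. Rpl14 had the highest mean, 0.36 ± 0.44, from array values of 0.05, 0.17 and 0.87, so its size rests on replicate 3 and it was not called (limma adjusted p = 0.138). Copies of these genes elsewhere in the genome are numerous, and the probe sequences are not in the files used here, so cross-hybridisation between a gene and its copies could not be examined.

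The stalk genes were not called at their brightest probes, and for Rplp0, Rplp1 and Rplp2 the sign of the ratio followed the dye. Rplp1 had intensities of 74348, 49320 and 74347 in mutant cortex on replicates 1, 2 and 3, against 39278, 89641 and 46351 in wild-type cortex. The mutant value was the higher on replicates 1 and 3 and the lower on replicate 2, where the dyes were exchanged, giving log2 ratios of 0.92, -0.86 and 0.68. Rplp2 read 0.72, -0.64 and 0.64, and Rplp0 read 0.47, -0.22 and 0.37 in the same pattern. None of the 3 was called, or passed at an unadjusted p under 0.05 (limma adjusted p = 0.609, 0.526 and 0.287). The probe of Rplp1 was called saturated on all 3 arrays and that of Rplp2 on replicates 2 and 3, so their ratios are those of the recorded intensities and no measured folds. Rplp0, which was not saturated, passed without replicate 2 at 0.42 (limma adjusted p = 0.0168), when both remaining arrays carried mutant RNA in Cy3. Rpl12, at the base of the stalk, read -0.06, 0.10 and -0.01.

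This pattern was most frequent among the brightest spots of the arrays. Of the 75 probes, 10 had a mean log2 signal above 15, an intensity of 32768: those of Rplp0, Rplp1, Rplp2, Rpl7a, Rpl11, Rpl13, Rpl23a, Rpl27, Rpl37a and Rpl38. Their median log2 ratios on replicates 1, 2 and 3 were 0.33, -0.17 and 0.24, close to 0.31, -0.23 and 0.27 over all 114 tested probes that bright. Replicate 2 had the opposite sign to both other arrays for 7 of the 10 (70%) and for 57.9% of the 114, against 10.8% of the 65 dimmer large subunit probes and 15.1% of all tested probes. Every gene spot called saturated was saturated in the RNA that carried Cy3: 15 mutant spots on replicate 1, 32 wild-type spots on replicate 2 and 24 mutant spots on replicate 3. The 12 tested probes saturated on every array, that of Rplp1 among them, had ratios of 0.81 to 0.95, -0.89 to -0.52 and 0.63 to 0.71. For Rplp1 the mutant signal was thus saturated on 2 arrays and the wild-type signal on the remaining array. The limma fit with dye as a term called 0 probes for dye, with 17 of 75 large subunit probes and 2409 of 27530 tested probes at an unadjusted p under 0.05. Of those 17, 7 lay above a signal of 15 and 10 at or below it (15.4% of 65, against 8.75% of all tested probes). The 10 included the probes called lower of Rpl3, Rpl5, Rpl23 and Rpl26 and the dimmer probe of Rpl6, also called lower. Their falls were smaller on replicate 2 (-0.26, -0.15, -0.24, -0.18 and -0.33).

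**Figure D2:**
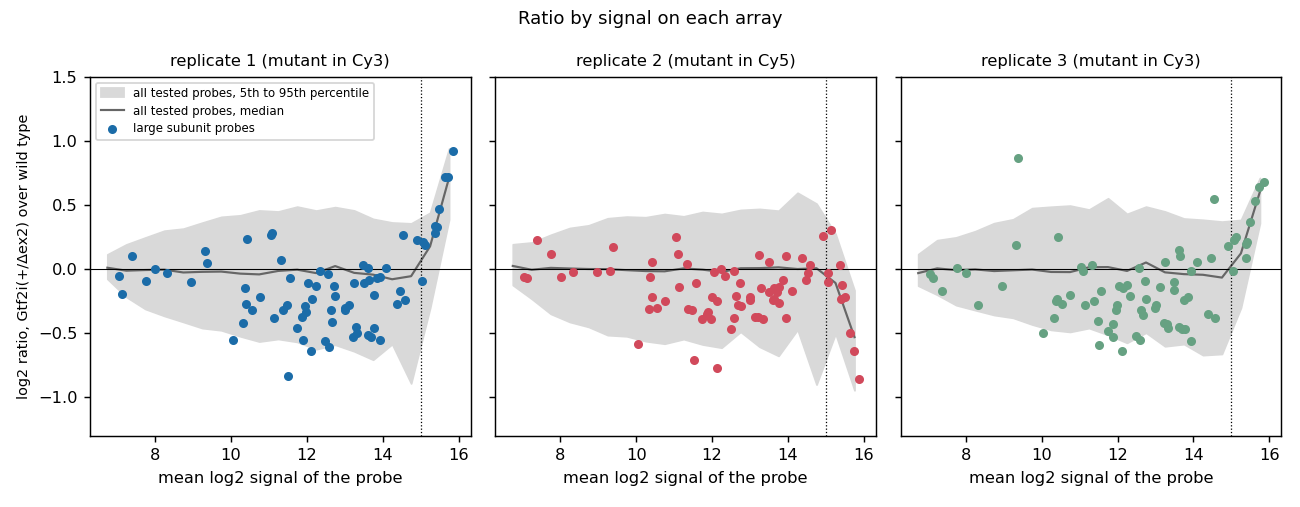
Log2 ratio of Gtf2i(+/Δex2) over wild type (vertical axis) against the mean log2 signal of the probe (horizontal axis), 1 panel per array; points are the 75 large subunit probes, the line and band are the median and the 5th to 95th percentile of all tested probes in steps of signal, and the dotted line marks a signal of 15. Right of the dotted line the points and the median of all probes bend upwards on replicates 1 and 3 and downwards on replicate 2.

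Below that brightness replicate 2 lay closer to the other arrays. Between replicates 1 and 2, which had opposite dyes, the ratios of the 65 dimmer large subunit probes had Pearson r = 0.833, against 0.282 with all 75 probes. Between replicates 2 and 3 it was 0.688, against 0.298 with all 75. For replicates 1 and 3, with dyes alike, it was 0.830, against 0.891 with all 75. For all 27416 tested probes of that brightness the values were 0.844 (replicates 1 and 2), 0.641 (2 and 3) and 0.780 (1 and 3). These correlations run across probes, which share arrays and RNA pools and are not replicates. Read by the brightest probe of at most 15, 45 genes had such a probe, and 23 of them fell (51.1%) and 1 rose, with a median log2 ratio of -0.195. All tested genes read the same way fell in 20.3% of cases and rose in 15.9%, with a median of -0.008. The limit of 15 was set after the data were seen. By signal, 14 of 20 large subunit probes between 10 and 12 fell, as did 7 of 12 between 12 and 13 and 12 of 18 between 13 and 14. Of all tested probes in these bands 26.5%, 28.2% and 30.9% fell. All 33 probes that fell thus lay between 10 and 14. Above 15, 5.26% of all tested probes fell and 14.9% rose.

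**Figure D3:**
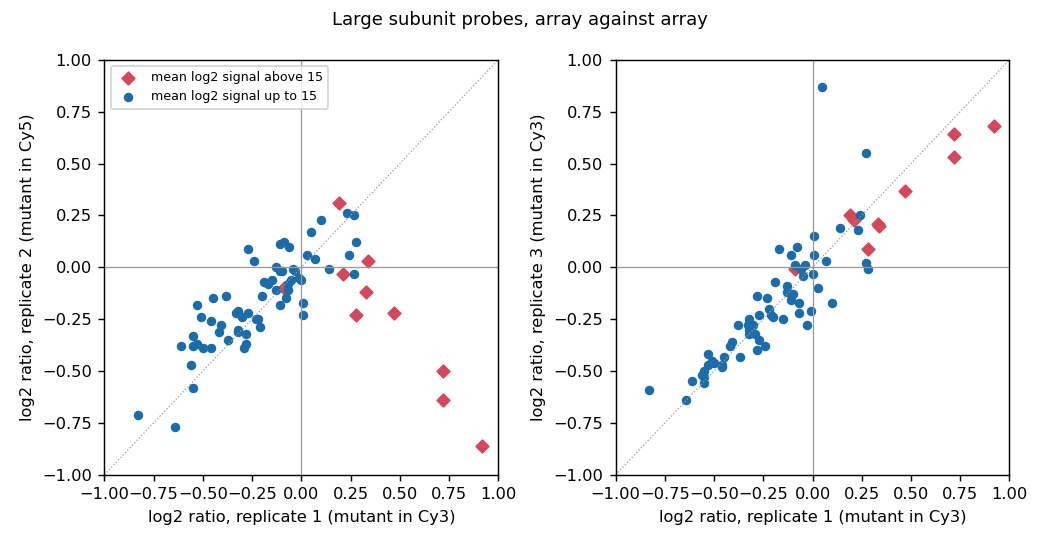
Log2 ratios of the 75 large subunit probes on replicate 2 (left panel) and replicate 3 (right panel) against replicate 1, Gtf2i(+/Δex2) over wild type; red diamonds are the 10 probes with a mean log2 signal above 15, blue circles the 65 others, and the dotted line marks equal ratios. The circles run along the dotted line in both panels, while most diamonds leave it where the dyes differ (left) and lie near it where the dyes were the same (right).

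Other probes of bright genes gave a second reading. Rplp0 had a dimmer probe with 3506, 3936 and 3635 in mutant cortex, against 4399, 4592 and 4416 in wild-type cortex. Its mutant values lay below all wild-type values, and it fell (-0.28 ± 0.05, SD, n = 3, limma adjusted p = 0.00732). The dimmer probes of Rpl13 (-0.24 ± 0.04, limma adjusted p = 0.00946) and Rpl23a (-0.21 ± 0.05, limma adjusted p = 0.0147) fell as well. Rpl7a had a probe just under the limit, at a mean log2 signal of 14.91, which rose with one sign on all 3 arrays (0.23, 0.26 and 0.18; limma adjusted p = 0.011), while its dimmest probe was uncalled at -0.12 ± 0.05. The second Rplp2 probe was near the dim end and uncalled (-0.11 ± 0.07).

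Of the 20 genes with several tested probes, 10 had the same call at each, and 6 of these fell throughout: Rpl6, Rpl7, Rpl17, Rpl24, Rpl34 and Rpl35a. Among 3270 such genes on the whole array 51.4% had the same call at each probe, and 198 had opposite calls. The median range between the highest and lowest probe of a gene was 0.26 for large subunit genes and 0.16 for all genes. Counted over any tested probe, 24 of 50 genes had at least 1 that fell, 3 had at least 1 that rose and 24 had none called. Counted in the same way, 24.3% of all tested genes had at least 1 probe that fell and 17.9% at least 1 that rose. Another 30 genes had a single tested probe, Rpl10 among them.

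**Figure D4:**
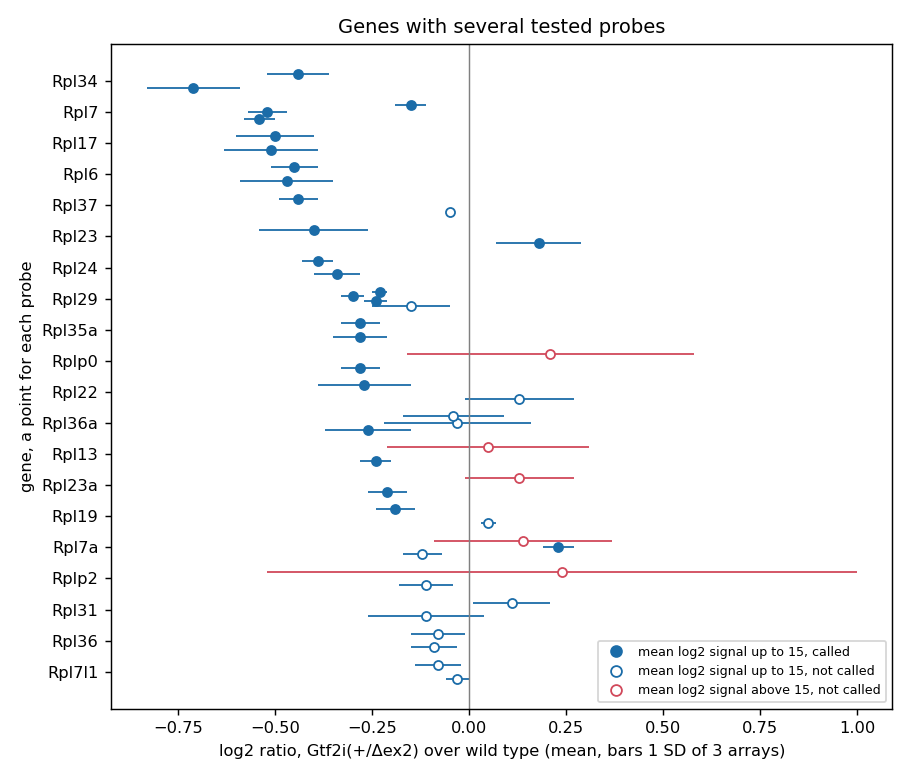
Mean log2 ratio of Gtf2i(+/Δex2) over wild type (horizontal axis; bars are 1 SD of 3 arrays) for every tested probe of the 20 large subunit genes with several, brightest probe on top within each gene; filled points were called by limma, open points were not, and red marks a mean log2 signal above 15. Rpl34, Rpl7, Rpl17 and Rpl6 lie left of 0 at each probe, Rpl23 has called points on both sides of 0, and the red points of Rplp2 and Rplp0 have the widest bars.

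Genes that work with the large subunit were read the same way, by lists chosen with earlier results of these data known. Across all tested genes 20% fell and 16% rose, and in the brightest 25% of them 25.4% fell and 25.7% rose. Small subunit proteins had 15 of 34 genes lower (44.1%), 1 higher and a median log2 ratio of -0.146, and 13 of the 34 lay above the signal of 15. Low p-values there were those of Rps26 (-0.63 ± 0.04), Rps3a1 (-0.42 ± 0.10) and Rps15 (-0.33 ± 0.05), and Rpsa was the gene that rose (0.29 ± 0.18, SD, n = 3). Other genes with TOP messages had 7 of 21 lower (33.3%) and 1 higher, with a median of -0.050. These included the elongation factor genes Eef1a2 (-0.91 ± 0.21), Eef2 (-0.60 ± 0.11) and Eef1g (-0.57 ± 0.03) and the initiation factor gene Eif3f (-0.47 ± 0.03).

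Assembly factors showed calls in both directions. Of 65 tested ribosome biogenesis genes 19 fell (29.2%) and 12 rose (18.5%), with a median of -0.048, where 20% of all tested genes fell and 16% rose. Mrto4, whose yeast counterpart holds the place of Rplp0 on the immature subunit, fell (-0.35 ± 0.05, SD, n = 3, limma adjusted p = 0.00431), as did Noc4l (-0.36 ± 0.07) and Noc2l (-0.30 ± 0.03). Spata5, an ATPase whose yeast counterpart releases a placeholder of Rpl24, rose (0.63 ± 0.14, limma adjusted p = 0.00336). Of 8 tested genes around the free Rpl5 and Rpl11 particle and p53, Rrs1, which in yeast helps place that particle, fell (-0.23 ± 0.02), Trp53 fell (-0.24 ± 0.11) and Bbc3, a p53 target that promotes cell death, rose (0.48 ± 0.17). Mdm2 was uncalled (-0.04 ± 0.07).

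**Figure D5:**
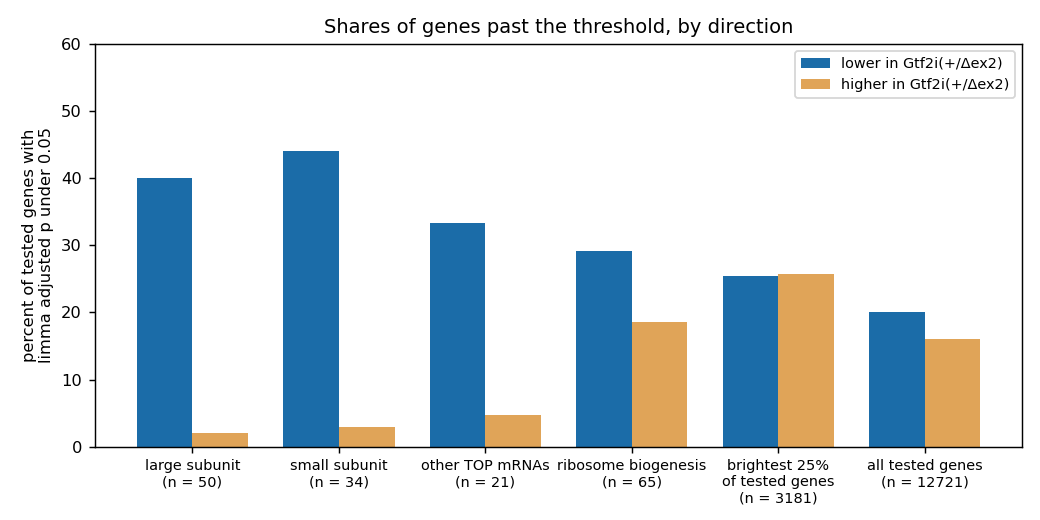
Percent of tested genes called lower (blue) or higher (orange) in Gtf2i(+/Δex2) cortex relative to wild type by limma at an adjusted p under 0.05, for the large subunit and related lists and for the brightest 25% and all of the tested genes, each gene by its brightest probe. The large subunit (40% lower, 2% higher) and small subunit (44.1% lower, 2.94% higher) have the most unequal bars, while the brightest 25% is even (25.4% and 25.7%).

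Markers of several cell types moved on the same arrays, on which 20% of all tested genes fell and 16% rose. Of 7 excitatory neuron markers 5 fell. Summed over the 7, mutant intensity on replicates 1, 2 and 3 was 20029, 24934 and 32833. The wild-type sums were 26121, 34926 and 43169. Most of each sum came from Camk2a, with 17201, 21846 and 29807 in mutant cortex and 22834, 31430 and 39035 in wild-type cortex. Of 5 astrocyte markers 4 fell (sums of 20869 to 24664 in mutant cortex and 26114 to 27703 in wild-type cortex), as did 4 of 5 microglia markers (2219 to 2389 in mutant, 2564 to 2664 in wild-type cortex). Of 5 choroid plexus markers 3 rose (7002 to 7946 in mutant, 5758 to 6270 in wild-type cortex). The thalamus list had 1 of 6 genes higher, with medians of 0.022, 0.084 and 0.856 on replicates 1, 2 and 3 and sums of 6006 to 7836 in mutant cortex and 2601 to 6698 in wild-type cortex, so replicate 3 stood apart. No marker had an intensity of 0. Interneuron markers had 2 of 7 lower, oligodendrocyte markers 2 of 6, striatum markers 2 of 6, blood markers 2 of 4 and endothelial markers 0 of 4 (by limma, with 0 at an unadjusted p under 0.05 as well). The excitatory neuron, astrocyte, microglia and choroid plexus lists had medians of the same sign on all 3 arrays. Without replicate 3, 19 of the 20 large subunit genes called lower kept their call. The part of any of these cell types or tissues in the large subunit values was not tested, and leaving out an array does not test it.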

How the data were processed

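Total RNA from mouse cortex (500 ng per labelling, RNA integrity number of at least 7, per the labels' protocols) was amplified with in vitro transcription, and mutant and wild-type RNA were hybridised together, in 2 colours, on Agilent 60-mer arrays. The authors deposited linear intensities per spot and channel. Per the deposited readme these had the background removed and were normalized, by a method it does not name. They also deposited a log2 ratio per probe, used here as an alternative. The deposited matrix of the series gives the authors' score for every spot, a signed fold that matched the fold column of its array at all 44290 spots (medians of -1.01, -1 and 1). Of its columns 0 were left unused.

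Spots of a probe were averaged on the log2 scale. Accessions were matched to RefSeq genes on GRCm38.p6, used for names and promoters, which named 21445 of 41174 probes. No loess was applied for the main values, since the intensities already were normalized. Mean log2 ratios were tested against 0 with limma 3.58.1 (lmFit, eBayes) in R 4.3.3 (data.table package, version 1.17.8), with Benjamini-Hochberg adjustment over 27530 probes. Saturated spots were kept. The brightest probe stood for a gene. Values were named for genes called with any probe at or below -0.4 or at or above 0.3, for genes of each role, for genes with opposite calls, and for up to 4 genes of lowest p per list; Rpl7a, Rpl13, Rpl14, Rpl36a and the genes given only by range were named after their values were seen. The fit was tested on simulated data. Summaries used Python 3.11.15, pandas 2.3.3 and matplotlib 3.10.9. Precision is limited by the number of arrays, 3. The genes and lists were chosen with earlier results of these data known. A few genes that these rules take are not reported here, though the counts include them.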

Additional observations from a re-analysis of the deposited data

How the results depend on the processing

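The count of large subunit genes called lower was 17 to 28 in the 13 alternatives that kept all 3 arrays (20 in the main analysis), and 8 to 21 when a single array was left out, with the lowest count without replicate 1. The count called higher (1) was less stable: 12 with array weights, which gave replicate 1 a weight of 5.843 against 0.373 and 0.459 for the others, 2 with the probe of smallest p, and 0 to 9 leaving out an array. The median log2 ratio (-0.086) was -0.186 with the probe of smallest p, -0.195 with probes above a signal of 15 left out (chosen after the data were seen), and -0.111 to -0.094 leaving out an array. Over all tested genes, array weights gave 4752 lower and 4057 higher, and replicates 1 and 2 counted as 1 gave 1474 and 1099. Leaving out an array gave 711 to 2677 lower and 450 to 2151 higher.

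Of the 20 genes called lower, 8 kept the call in all 16 alternatives and 12 lost it in at least 1. Signs turned for uncalled genes near 0 or with disagreeing probes: Rpl12 read -0.0040 with loess, -0.05 with array weights and -0.03 to 0.05 leaving out an array; Rpl39 0.01 with array weights and -0.08 to 0.03 leaving out an array; Rpl39l -0.0021 with replicates 1 and 2 averaged and -0.03 to 0.16 leaving out an array; Rpl31 -0.0005 with the mean of its probes. Rpl23a read -0.21 and Rplp0 -0.28 with the probe of smallest p or with bright probes left out, and both -0.04 with the mean of their probes. For the saturated probes, whose ratios are no measured folds, Rplp1 read -0.03 with dye as a term and -0.09 to 0.80 leaving out an array, and Rplp2 -0.11 with the probe of smallest p or bright probes left out and -0.0000 to 0.68 leaving out an array. The main analysis is itself paired, since each ratio sets mutant against wild type on the same array. No further pairing was possible, as there is 1 group of ratios. Signal limits the bright end, where saturated probes have only a bound.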
